A study of Bos taurus with 2 samples.

Results

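The genes LIN28A, LIN28B, HMGA2, IGF2BP1, IGF2BP2 and IGF2BP3 were followed through nuclei of cattle (Bos taurus) embryos, blastocysts at day 8, and of embryo models called blastoids. They are 6 of the 35643 features that both libraries list, and each symbol occurs once in either library, as ENSBTAG00000040497 (LIN28A), ENSBTAG00000043973 (LIN28B), ENSBTAG00000044118 (HMGA2), ENSBTAG00000011736 (IGF2BP1), ENSBTAG00000007666 (IGF2BP2) and ENSBTAG00000019406 (IGF2BP3). The rule names them by symbol. They were put forward with their levels in these libraries known, so the levels below are a description and no test was run on them. The blastoids were blastocyst-like aggregates assembled from 3 bovine stem cell lines in microwells, with 8 bEPSCs, 8 bXEN cells and 16 bTSCs for each. They grew in a serum-free medium with LIF, activin A, CHIR99021 and the CEPT survival cocktail. Both groups carried the label wild type and were frozen before nuclei were isolated, and droplet libraries of the nuclei were made with 10x Genomics 3' chemistry. Each group had 1 library, and neither the number of structures pooled in it nor the length of blastoid culture is given in the sources used here. Every comparison below therefore sets 2 libraries side by side, with no replicate check.

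LIN28A and LIN28B are RNA-binding proteins that bind precursors of the let-7 microRNAs and block their maturation. Mature let-7 represses many growth genes, among them HMGA2, the IGF2BP genes and the LIN28 genes themselves, so the genes form a loop that is active in embryos and shut down in most adult tissues. HMGA2 is an architectural chromatin protein that bends AT-rich DNA, and IGF2BP1, IGF2BP2 and IGF2BP3 bind and stabilise messenger RNAs. Many tumours express these genes again, and for that they are called oncofetal. The libraries hold long RNAs only, so let-7 itself was not analysed here.

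The blastoid library kept 1914 of 1957 barcodes with 7481006 unique molecular identifiers (UMIs, counts of single RNA molecules), and the blastocyst library kept 827 of 944 with 6849933. The medians were 2009.5 and 7639 UMIs per kept barcode, and 1 barcode sequence occurred in both libraries. Each library was clustered on its own without the 6 genes and without the marker genes. In the blastocyst the clusters were hypoblast-like (420 nuclei), trophectoderm-like (233), epiblast-like (48) and a shallow cluster of 126 nuclei with a median of 1848.5 UMIs that was high in keratins. The epiblast-like nuclei had 157 CPM of the pluripotency factor NANOG, but also 525 CPM of HNF4A and 490 CPM of GATA6, factors known from the hypoblast. CPM is a gene's share of all UMIs of a cluster or library, multiplied by 1000000. In the blastoid 154 nuclei were trophectoderm-like. A cluster of 141 nuclei kept no cell type name, because none of the named classes had enough markers there. It is called DCC-high after the netrin receptor gene DCC (2541 CPM against 26.5 CPM in the trophectoderm-like nuclei). The remaining 1619 blastoid nuclei, 84.6% of those kept and 42.3% of the UMIs, were shallow (median 1926 UMIs), had 15.7% ribosomal protein UMIs and are called ribosomal-rich. NANOG was near 0 in the blastoid, with 15 UMIs in the whole library.

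Over whole libraries, LIN28B and HMGA2 were higher in the blastoid, IGF2BP1 and IGF2BP3 were lower, and LIN28A and IGF2BP2 lay close to the blastocyst. LIN28B had 227 CPM (95% interval 216 to 238) in the blastoid and 92.6 CPM (85.5 to 100) in the blastocyst, a ratio of 2.45 (2.24 to 2.69). HMGA2 had 189 CPM (179 to 199) against 77.4 CPM (70.9 to 84.2), a ratio of 2.44 (2.21 to 2.71). LIN28A, the paralogue best known from pluripotent stem cells, was scarce in both, with 24.1 CPM against 29.5 CPM and a ratio of 0.816 (0.664 to 1.00). All intervals here and below cover counting error only.

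Among the mRNA-binding genes, IGF2BP1 had 187 CPM in the blastoid and 329 CPM in the blastocyst and was 1.76-fold lower (1.64 to 1.88). IGF2BP3 had 308 CPM against 473 CPM and was 1.53-fold lower (1.45 to 1.62). IGF2BP2 had 365 CPM against 313 CPM, a ratio of 1.17 (1.10 to 1.24). Its direction was not stable, with a log2 ratio of 0.22 for the sums, -1.03 for the mean CPM of single nuclei and -0.034 without the 1% of nuclei richest in it. The mean of single nuclei also brought HMGA2 from 1.29 to 0.19, LIN28B to 0.51, IGF2BP1 from -0.81 to -1.63 and IGF2BP3 from -0.62 to -1.46 on the log2 scale. Of the 6 genes, 2 were at least 2-fold higher in the blastoid and 0 at least 2-fold lower. Of the 11940 genes whose summed count reached 100 UMIs, 21% were that much higher and 18% that much lower. Nothing is read from the count of the 6, since they were chosen with this contrast known. The median log2 ratio of the 7826 genes with at least 100 UMIs in each library was -0.25. In a sum over a library, fewer nuclei of a type and less RNA per nucleus cannot be told apart.

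The ribosomal-rich nuclei lowered the blastoid values of 5 of the 6 genes. HMGA2 stood at 30.7 CPM there, IGF2BP2 at 65.1 CPM, IGF2BP1 at 71.2 CPM, LIN28B at 86.0 CPM and IGF2BP3 at 106 CPM, each under the other 2 blastoid clusters. LIN28A, at 21.5 CPM, was level with them. With nuclei of at least 4000 UMIs only (286 in the blastoid and 687 in the blastocyst), the ratio was 3.52 (3.20 to 3.87) for LIN28B, 3.82 (3.45 to 4.23) for HMGA2 and 1.84 (1.73 to 1.95) for IGF2BP2. In these deep nuclei IGF2BP1 was 1.22-fold lower (1.13 to 1.31) and IGF2BP3 had a ratio of 0.953 (0.901 to 1.01), both closer to 1 than over the whole libraries. Past 2-fold were 2 genes upward and 0 downward, where 15.1% and 12.6% of all genes with at least 100 UMIs were. The deep blastoid nuclei were 139 DCC-high and 147 trophectoderm-like, without ribosomal-rich nuclei. The deep blastocyst nuclei were 384 hypoblast-like, 222 trophectoderm-like, 47 epiblast-like and 34 shallow keratin-high. The cut thus changed the mix of clusters as well as the depth, and these cannot be told apart.

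**Figure D1:**
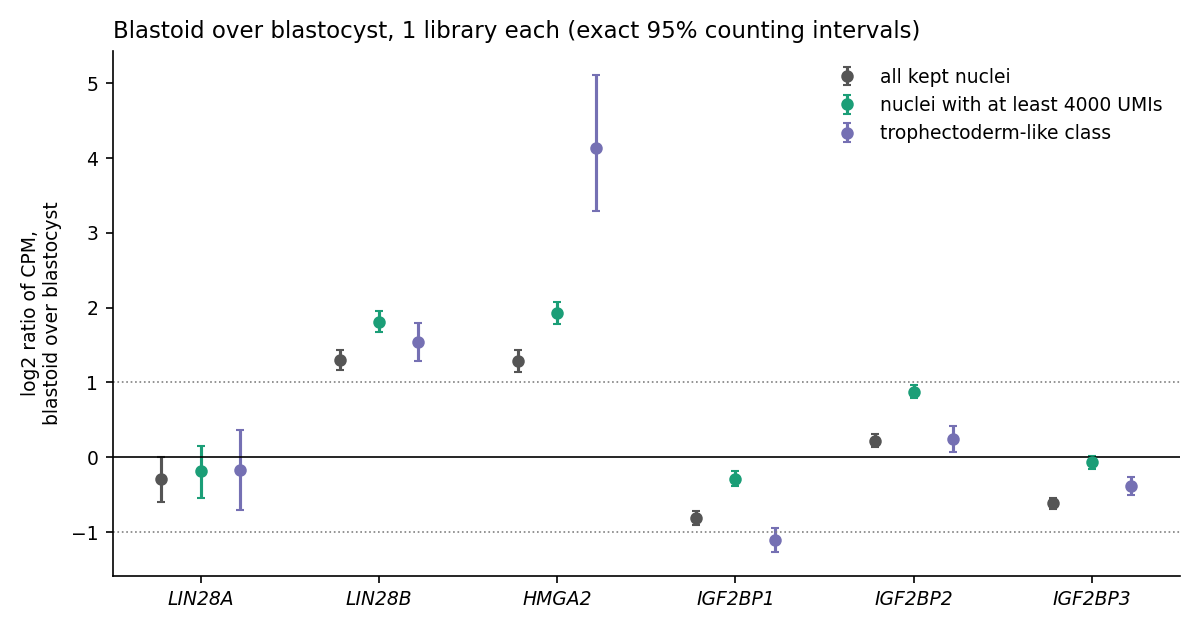
Log2 ratio of CPM, blastoid over blastocyst, for each of the 6 genes in all kept nuclei, in nuclei with at least 4000 UMIs and in the trophectoderm-like class. Points are 1 library against 1 library, bars are exact 95% counting intervals, and dotted lines mark 2-fold. LIN28B and HMGA2 lie above the upper line in all 3 sets, and HMGA2 lies highest in the trophectoderm-like class.

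Within each library the genes differed in where they were found. LIN28A was nearly even. Its highest level was in the hypoblast-like nuclei, at 33.2 CPM (27.5 to 39.7), and its lowest in the ribosomal-rich nuclei, at 21.5 CPM (16.7 to 27.3). Between them were DCC-high (30 CPM), trophectoderm-like blastocyst (26.1 CPM), epiblast-like (24.8 CPM), shallow keratin-high (23.1 CPM) and trophectoderm-like blastoid nuclei (22.7 CPM). Neighbours in this order did not differ beyond their intervals. At most 4 UMIs of LIN28A were seen in a nucleus, and only the ends of the order had intervals that did not overlap, by a narrow margin.

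LIN28B was highest in 2 clusters whose order depended on the clustering. The DCC-high nuclei had 512 CPM (480 to 545), the epiblast-like nuclei 324 CPM (276 to 379) and the trophectoderm-like blastoid nuclei 188 CPM (171 to 206). Below them the ribosomal-rich (86.0 CPM), hypoblast-like (83.0 CPM), trophectoderm-like blastocyst (66 CPM) and shallow keratin-high nuclei (56.7 CPM) followed, each overlapping the next in interval. At resolutions 0.3 and 1.0, where 16 nuclei were epiblast-like, they had 554 CPM (446 to 679), overlapping the DCC-high nuclei. The 48 epiblast-like nuclei, 5.80% of the blastocyst nuclei, held 24.8% of its LIN28B UMIs.

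HMGA2 spanned the widest range of levels. The epiblast-like nuclei had 773 CPM (696 to 855) and the DCC-high nuclei 597 CPM (563 to 633). The trophectoderm-like blastoid nuclei had 76.1 CPM (65.5 to 87.9), the hypoblast-like nuclei 40.1 CPM (33.8 to 47.2) and the ribosomal-rich nuclei 30.7 CPM (24.9 to 37.4), the last pair with overlapping intervals. In the trophectoderm-like blastocyst nuclei HMGA2 was down to 4.34 CPM (2.08 to 7.99), from 10 UMIs over 233 nuclei, and the shallow keratin-high nuclei had 4.2 CPM from 2 UMIs.

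Most HMGA2 molecules came from few nuclei. Of the 530 HMGA2 UMIs of the blastocyst, 374 (70.6%) were in the 48 epiblast-like nuclei. Of the 1415 UMIs in the blastoid, 1134 (80.1%) were in the 141 DCC-high nuclei. HMGA2 had taken no part in the clustering. By fold over the rest of the library it still stood at rank 1 of 7757 genes in the epiblast-like cluster, at 31.5-fold, with LIN28B at rank 70 and IGF2BP2 at rank 187. In the DCC-high cluster HMGA2 was at rank 239 of 8599, IGF2BP2 at rank 400 and LIN28B at rank 727.

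IGF2BP2 was highest in the same pair of clusters as HMGA2. It had 1029 CPM (983 to 1075) in the DCC-high nuclei, 769 CPM (693 to 851) in the epiblast-like nuclei and 338 CPM (320 to 358) in the hypoblast-like nuclei. The trophectoderm-like nuclei had 237 CPM (218 to 258) in the blastoid and 206 CPM (188 to 226) in the blastocyst, with overlapping intervals, and the shallow keratin-high nuclei had 172 CPM. The 16 epiblast-like nuclei of the other resolutions had 1228 CPM (1065 to 1409), overlapping the DCC-high nuclei.

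IGF2BP1 and IGF2BP3 were spread more broadly. IGF2BP1 was highest in the trophectoderm-like blastocyst nuclei, at 446 CPM (419 to 474), ahead of the DCC-high nuclei at 373 CPM (346 to 401). The hypoblast-like (275 CPM), shallow keratin-high (267 CPM), epiblast-like (229 CPM) and trophectoderm-like blastoid nuclei (193 CPM) formed a run in which each overlapped the next. IGF2BP3 had 667 CPM (597 to 744) in the epiblast-like and 573 CPM (539 to 608) in the DCC-high nuclei, which overlapped, then 504 CPM in the trophectoderm-like and 443 CPM in the hypoblast-like blastocyst nuclei. The trophectoderm-like blastoid nuclei (365 CPM) and the shallow keratin-high nuclei (349 CPM) overlapped.

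**Figure D2:**
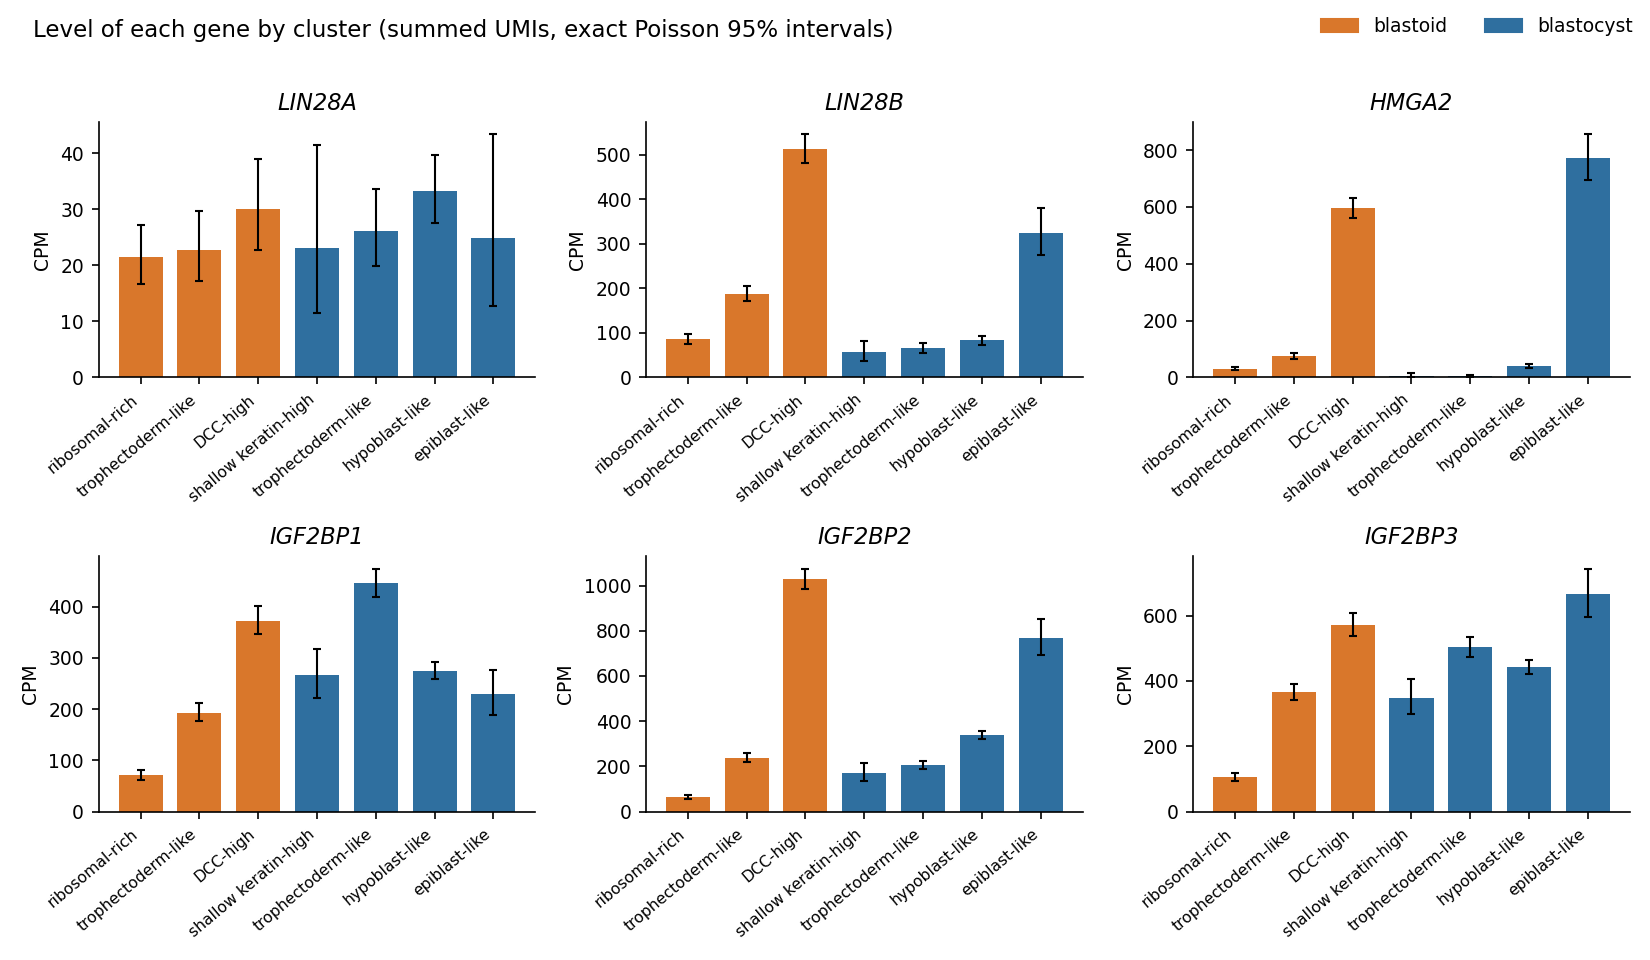
Level of each gene in CPM by cluster, with blastoid clusters in orange and blastocyst clusters in blue. Bars are summed UMIs of a cluster over all its UMIs, error bars are exact Poisson 95% intervals, and each panel has its own axis. HMGA2 and LIN28B stand out in the DCC-high and epiblast-like clusters, IGF2BP1 is highest in the trophectoderm-like blastocyst nuclei, and LIN28A is nearly even.

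Between the epiblast-like and trophectoderm-like nuclei of the embryo, HMGA2 differed 178-fold (95.7 to 374), LIN28B 4.91-fold (3.91 to 6.18) and IGF2BP2 3.72-fold (3.24 to 4.28), each higher in the epiblast-like nuclei. IGF2BP1 ran the other way and was 1.95-fold lower there (1.60 to 2.39), and IGF2BP3 had a ratio of 1.33 (1.17 to 1.5). LIN28A had a ratio of 0.951 (0.466 to 1.79) from 12 UMIs in the epiblast-like nuclei. At least 2-fold higher were 3 of the 6 genes and at least 2-fold lower 0, where 11.5% and 19.1% of the genes with at least 100 UMIs were. LIN28A, with 72 UMIs, was not among those. Against the hypoblast-like nuclei the same 3 genes were past 2-fold in the epiblast-like nuclei, HMGA2 19.3-fold (15.8 to 23.5), LIN28B 3.91-fold (3.20 to 4.76) and IGF2BP2 2.27-fold (2.02 to 2.55). IGF2BP3 was 1.51-fold higher (1.33 to 1.70), IGF2BP1 had a ratio of 0.834 (0.679 to 1.02) and LIN28A one of 0.748 (0.376 to 1.36). At least 2-fold higher were 3.56% of all genes with at least 100 UMIs, and 5.46% were 2-fold lower. The hypoblast-like nuclei had more HMGA2 than the trophectoderm-like ones, which were 9.24-fold lower (4.88 to 19.7), and 11.6% of the genes were 2-fold higher and 13.4% 2-fold lower in the latter. The hypoblast-like level rested on few nuclei, since 16 of the 420 held 101 of the 144 HMGA2 UMIs and the other 404 had 12.6 CPM (9.09 to 16.9). The epiblast-like boundary bears on these sizes. At finer and coarser clustering (resolutions 1.0 and 0.3) the name fell on 16 of the nuclei, which had 1379 CPM of HMGA2, 554 CPM of LIN28B and 1228 CPM of IGF2BP2.

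In the blastoid the DCC-high nuclei were compared with the trophectoderm-like nuclei. HMGA2 was 7.85-fold higher in the former (6.71 to 9.22), IGF2BP2 4.33-fold (3.95 to 4.77) and LIN28B 2.73-fold (2.44 to 3.06). IGF2BP1 was 1.93-fold higher (1.72 to 2.17) and IGF2BP3 1.57-fold (1.43 to 1.72). LIN28A had a ratio of 1.32 (0.895 to 1.95). Thus 3 of the 6 genes were past 2-fold, the 3 that were past it in the embryo comparison, beside 15.7% of all genes with at least 100 UMIs upward and 16.2% downward. IGF2BP1 lay on opposite sides in the pair of comparisons, higher in DCC-high than in trophectoderm-like blastoid nuclei and lower in epiblast-like than in trophectoderm-like blastocyst nuclei. That difference was not tested.

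Between the DCC-high and the 48 epiblast-like nuclei the 6 ratios, blastoid over blastocyst, stayed within 2-fold, as those of most genes did, and 5 of the 6 intervals excluded 1. LIN28B was 1.58-fold higher in the DCC-high nuclei (1.33 to 1.88), IGF2BP1 1.62-fold (1.33 to 2.00) and IGF2BP2 1.34-fold (1.20 to 1.5). HMGA2 was 1.29-fold lower (1.15 to 1.46) and IGF2BP3 1.17-fold lower (1.03 to 1.32), and LIN28A had a ratio of 1.21 (0.642 to 2.48). The direction for LIN28B, HMGA2 and IGF2BP2 depended on which blastocyst nuclei were taken, but the reversed values overlapped the DCC-high nuclei in interval. In the 16 nuclei of the other resolutions HMGA2 was at 1379 CPM (1206 to 1569), over 2-fold above the DCC-high nuclei, and LIN28B and IGF2BP2 were at 554 CPM and 1228 CPM, above them with overlapping intervals. In the 40 nuclei with at least 2 UMIs of NANOG, HMGA2 was at 537 CPM (471 to 610), below the DCC-high nuclei with overlapping intervals. Of those 40 nuclei 22 were in the epiblast-like, 16 in the hypoblast-like and 2 in the shallow keratin-high cluster. Of all genes with at least 100 UMIs, 22.2% were at least 2-fold higher and 12.9% at least 2-fold lower. Of the epiblast markers, NANOG had 2.11 CPM in the DCC-high nuclei, from 4 UMIs, and DPPA4 10.0 CPM against 736 CPM, whereas SOX2 was at 43.2 CPM and 47.5 CPM. DCC had 4.13 CPM in the epiblast-like nuclei, from 2 UMIs.

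The trophectoderm-like class, the outer layer that forms the placenta, was the named class found in both libraries. In the blastocyst it joined the trophectoderm-like and the shallow keratin-high nuclei (359 in all). HMGA2 differed most among the 6 genes, with 184 UMIs in 154 blastoid nuclei (76.1 CPM) and 12 UMIs in 359 blastocyst nuclei (4.32 CPM), a ratio of 17.6 (9.84 to 34.7). The 25 blastoid nuclei with at least 3 HMGA2 UMIs held 120 of the 184, and the other 129 had 34.2 CPM (26.4 to 43.7). LIN28B had 188 CPM against 64.4 CPM, a ratio of 2.91 (2.44 to 3.48). IGF2BP1 had 193 CPM against 415 CPM and was 2.15-fold lower (1.93 to 2.40). IGF2BP3 was 1.31-fold lower (1.20 to 1.42), IGF2BP2 had a ratio of 1.18 (1.05 to 1.33), and LIN28A one of 0.889 (0.614 to 1.28). Past 2-fold were 2 genes upward and 1 downward, beside 11.5% and 11.3% of the 7848 genes with at least 100 UMIs. When nuclei were instead gated by at least 2 UMIs of GATA2 and GATA3 together, the log2 ratio of HMGA2 moved from 4.14 to 5.18.

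RNA free in solution or from mixed droplets could carry transcripts between clusters of a library, and its part in the blastoid trophectoderm-like values was not tested. As a rough guide to such carry-over, the 7 genes of the neural list that marked the DCC-high nuclei were followed into the other blastoid clusters. In the trophectoderm-like nuclei 6 of them, among them DCC, AUTS2, CTNNA2, ROBO2 and NCAM1, stood at 1.04% to 6.99% of their DCC-high CPM, and the seventh, the receptor gene ERBB4, at 26.3%. HMGA2 stood at 12.7% and IGF2BP2 at 23.1%, above the 6 and below ERBB4. LIN28B at 36.6%, IGF2BP1 at 51.8%, IGF2BP3 at 63.7% and LIN28A at 75.8% lay above all 7. In the ribosomal-rich nuclei the 6 genes stood at 2.73% to 7.32% and ERBB4 at 82.0%. HMGA2 at 5.14% and IGF2BP2 at 6.33% lay inside the range of the 6, and the other 4 genes lay between it and ERBB4, from 16.8% to 71.7%. A gene that a cluster also expresses gives a higher value in such a comparison. The 7 genes were taken because they were higher in the DCC-high nuclei, so low values elsewhere were partly set by that choice. Of the neural list genes not taken, MAP2 stood at 16.2%, PAX6 at 63.6% and TUBB3 at 65.4% in the trophectoderm-like nuclei. These had 58, 21 and 24 UMIs in the DCC-high nuclei. The place of a gene against the 7 is therefore a description and does not measure its carry-over.

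Inside the trophectoderm-like blastoid cluster at least 3 UMIs of HMGA2 were found in 25 of the 154 nuclei. The split also took the deeper nuclei, since their median depth was 21312 UMIs against 13307 UMIs in the other 129. The trophectoderm factor GATA2 was as high in the first set (326 CPM) as in the second (338 CPM). DCC was no higher (20.0 CPM against 28.4 CPM), whereas CTNNA2, an alpha-catenin gene, was (160 CPM, 128 to 197, against 32.1 CPM, 24.5 to 41.3), as was AUTS2 (111 CPM against 44.9 CPM). In the hypoblast-like cluster 16 of 420 nuclei had at least 3 HMGA2 UMIs. They had 612 CPM of HNF4A and 936 CPM of GATA6, close to the 553 CPM and 982 CPM of the other hypoblast-like nuclei. NANOG stood at 48.9 CPM (21.1 to 96.4) in them, from 8 UMIs, and at 22.5 CPM (17.7 to 28.1) in the others, with overlapping intervals.

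Detection per nucleus was compared after each nucleus was thinned to 2000 UMIs, because shallow nuclei show fewer genes. This left out 933 ribosomal-rich, 64 shallow keratin-high and 0 to 7 nuclei of each other cluster. HMGA2 was then detected in 62.5% of the epiblast-like (30 of 48, 47.4% to 76.0%) and 53.6% of the DCC-high nuclei (75 of 140, 45.0% to 62.0%). It was detected in 13.3% of the trophectoderm-like blastoid (20 of 150), 5.33% of the hypoblast-like (22 of 413) and 4.66% of the ribosomal-rich nuclei (32 of 686). In the trophectoderm-like blastocyst cluster it was detected in 0 of 230 nuclei, which allows a share of up to 1.30% by 3 counts and has an exact upper limit of 1.59%, both for a UMI at this thinned depth. At 4000 UMIs it was detected in 5 of 222 (2.25%). Unthinned, with median depths of 8760 UMIs in that cluster and 14620 UMIs in its blastoid counterpart, the shares were 3.86% and 47.4%.

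LIN28B was detected in 56.4% of the thinned DCC-high (79 of 140), 35.4% of the epiblast-like (17 of 48) and 27.3% of the trophectoderm-like blastoid nuclei (41 of 150). In the hypoblast-like and trophectoderm-like blastocyst clusters the shares were 15.0% and 15.2%. With all UMIs the shares of these 5 clusters were 93.6%, 60.4%, 77.9%, 37.9% and 37.3%. IGF2BP2 reached 85.7% in the DCC-high nuclei (120 of 140) and 66.7% in the epiblast-like nuclei (32 of 48), and 141 of 141 DCC-high nuclei had it before thinning. IGF2BP1 was detected in 57.8% of the trophectoderm-like blastocyst nuclei (133 of 230) and 32.7% of those in the blastoid (49 of 150), intervals 51.2% to 64.3% and 25.2% to 40.8%, and with all UMIs in 89.3% and 77.3%. LIN28A was detected in 2.08% to 6.52% of nuclei across the 7 thinned clusters.

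**Figure D3:**
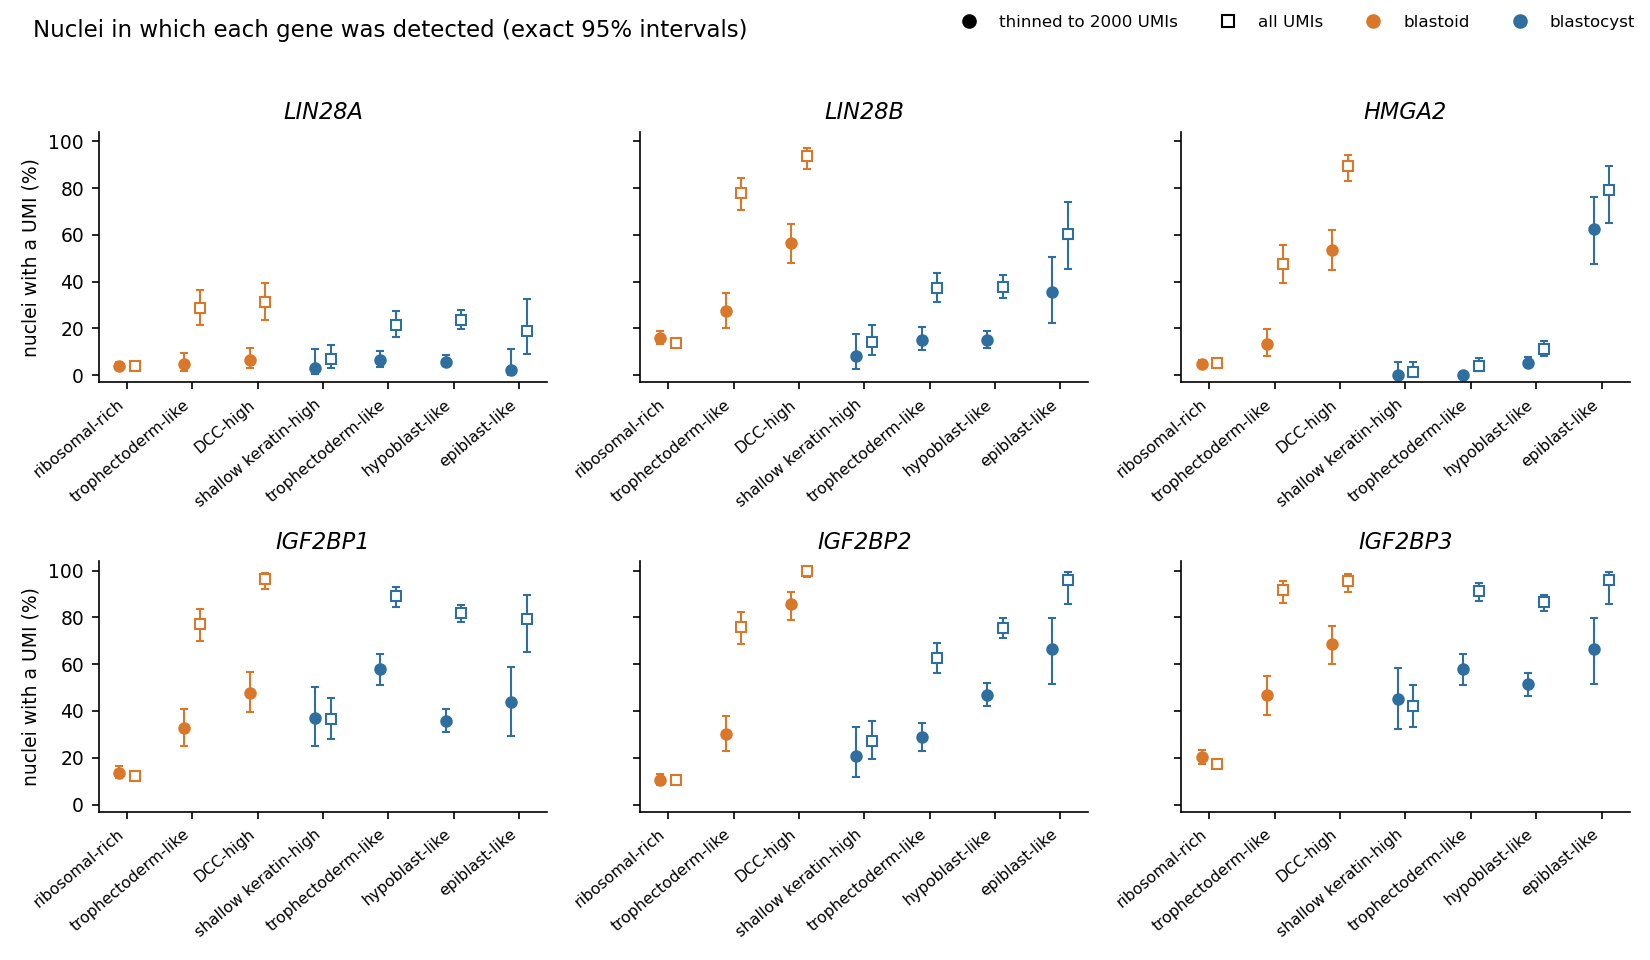
Share of nuclei with at least 1 UMI of each gene by cluster, in percent, with nuclei thinned to 2000 UMIs (filled circles) and with all UMIs (open squares). Blastoid clusters are orange, blastocyst clusters blue, and bars are exact 95% intervals. HMGA2 is detected in 0 of 230 thinned trophectoderm-like blastocyst nuclei and in 13.3% of those of the blastoid.

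At least 3 of the 6 genes were often detected in the same nucleus in the clusters that were rich in them. Such shares rise with the detection of each gene alone, and no expected share was computed from that. After thinning, 72.1% of the DCC-high nuclei (101 of 140, 63.9% to 79.4%) and 66.7% of the epiblast-like nuclei (32 of 48, 51.6% to 79.6%) had at least 3 of the genes. The share was 18.2% in the hypoblast-like, 17.0% in the trophectoderm-like blastocyst, 15.3% in the trophectoderm-like blastoid and 3.06% in the ribosomal-rich nuclei. With all UMIs these 6 shares were 99.3%, 93.8%, 73.1%, 69.5%, 89.0% and 2.29%, which follow the depth of the nuclei as well. Between the trophectoderm-like nuclei of the libraries the thinned shares had overlapping intervals. The gene detected most often in them was IGF2BP3 in the blastoid (46.7%), and IGF2BP3 and IGF2BP1 alike in the blastocyst (57.8%).

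**Figure D4:**
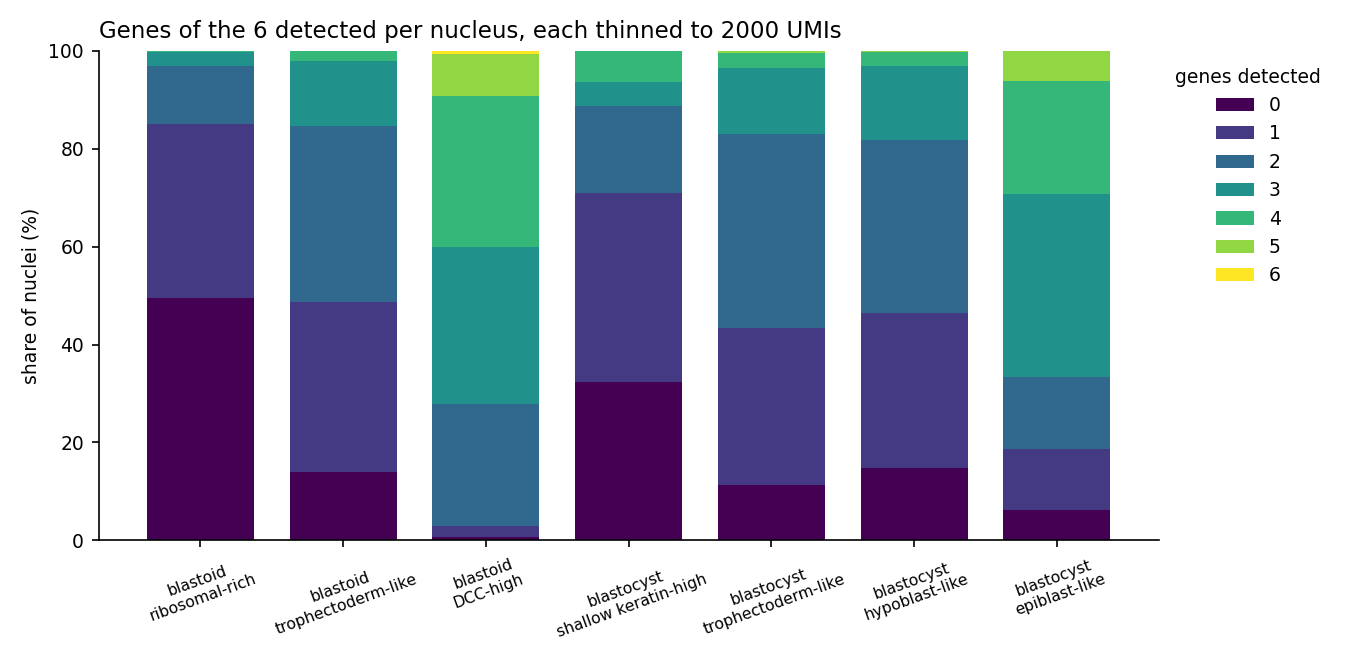
Share of nuclei, in percent, in which 0 to 6 of the genes were detected after thinning to 2000 UMIs, for each cluster. Each bar sums to all nuclei of a cluster with that depth. In the DCC-high and epiblast-like clusters 72.1% and 66.7% of nuclei have at least 3 genes, and in the ribosomal-rich cluster 3.06%.

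Across all thinned nuclei of a library HMGA2 was found more often in nuclei with LIN28B than in nuclei without it. In the blastoid HMGA2 was detected in 23.9% of nuclei with LIN28B (55 of 230, 18.6% to 30%) and in 9.65% of nuclei without it (72 of 746, 7.63% to 12%). In the blastocyst the shares were 17.6% (21 of 119, 11.3% to 25.7%) and 4.89% (31 of 634, 3.35% to 6.87%). Within the DCC-high cluster no such difference was detectable at this depth, with HMGA2 in 51.9% of nuclei with LIN28B (40.4% to 63.3%) and 55.7% of those without (42.4% to 68.5%). Within the epiblast-like cluster the shares were 88.2% (15 of 17) and 48.4% (15 of 31), with overlapping intervals, and at a depth of 4000 UMIs they were 72.0% (18 of 25) and 68.2% (15 of 22). In the trophectoderm-like blastoid nuclei the shares were 7.32% (3 of 41) and 15.6% (17 of 109), in the ribosomal-rich nuclei 10% (11 of 110) and 3.65% (21 of 576), and in the hypoblast-like nuclei 9.68% (6 of 62) and 4.56% (16 of 351). In each of these 5 clusters the intervals with and without LIN28B overlapped.

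The same held for HMGA2 and IGF2BP2. IGF2BP2 was detected in 58.3% of blastoid nuclei with HMGA2 (74 of 127) and 19.1% of those without. In the blastocyst the shares were 67.3% (35 of 52) and 38.5%. Within the DCC-high cluster they were 81.3% with HMGA2 and 90.8% without, with overlapping intervals.

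**Figure D5:**
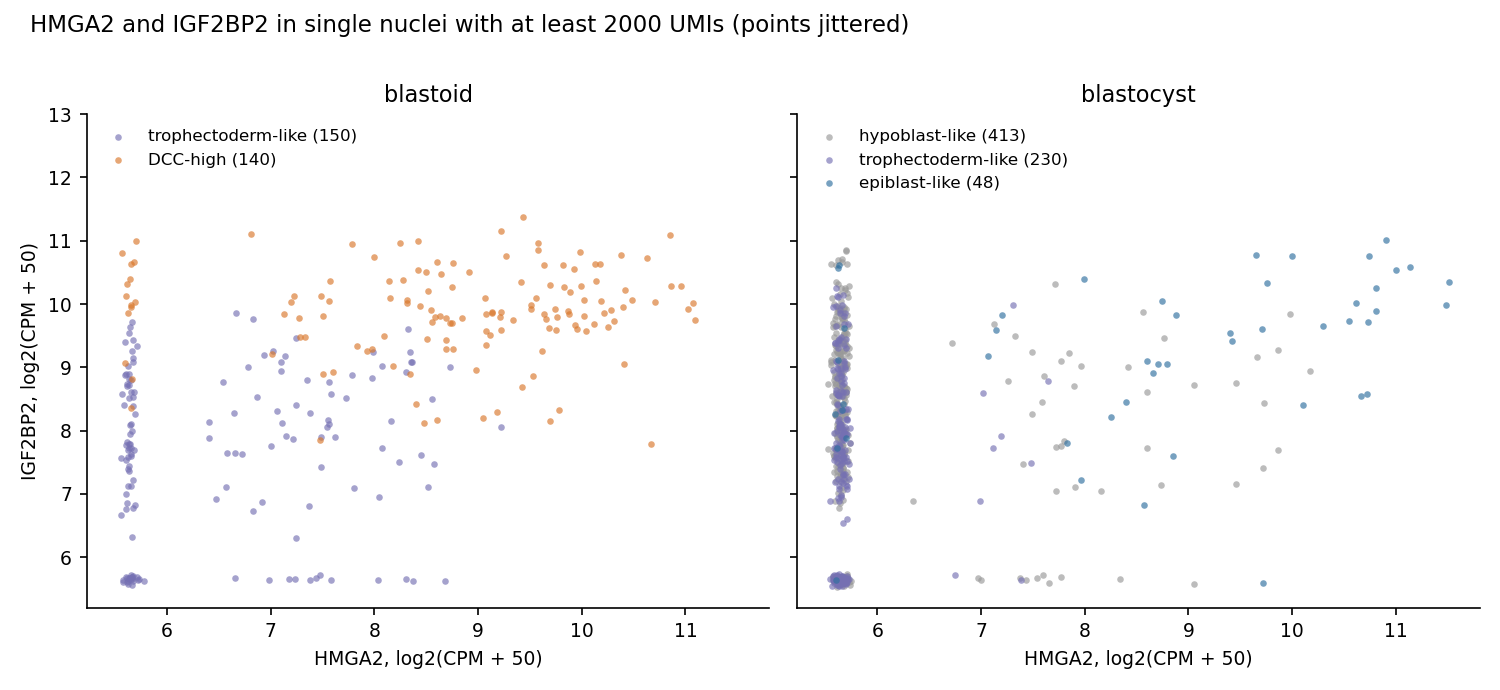
HMGA2 against IGF2BP2 in single nuclei with at least 2000 UMIs, as log2(CPM + 50), for the blastoid and the blastocyst. A point is 1 nucleus with a small random shift, colours are clusters, the number of nuclei stands in the key, and the ribosomal-rich and shallow keratin-high clusters are left out. DCC-high and epiblast-like nuclei extend to the upper right, and most hypoblast-like and trophectoderm-like blastocyst nuclei line up at 0 UMIs of HMGA2.

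Single nuclei of the rich clusters varied widely. In the DCC-high cluster HMGA2 ranged from 0 to 2199 CPM per nucleus with a median of 476 CPM, and IGF2BP2 from 171 to 2562 CPM with a median of 919 CPM. In the epiblast-like cluster HMGA2 ranged from 0 to 2727 CPM with a median of 402 CPM and LIN28B from 0 to 1431 CPM with a median of 205 CPM. When blastocyst nuclei were taken by the presence of at least 3 HMGA2 UMIs, whatever their cluster, 30 of the 46 were epiblast-like, 16 hypoblast-like and 0 trophectoderm-like. NANOG was at 127 CPM in them and at 18.5 CPM in the other nuclei, GATA2 at 4.22 CPM and 184 CPM, and LIN28B at 310 CPM and 76.4 CPM. Of the hypoblast factors, HNF4A was higher in them (549 CPM against 329 CPM) and GATA6 lower (621 CPM against 781 CPM). The epiblast markers SOX2 (40.1 CPM against 26.3 CPM) and PRDM14 (54.9 CPM against 35.4 CPM) had overlapping intervals. Conversely, the 40 nuclei with at least 2 UMIs of NANOG had 537 CPM of HMGA2 (471 to 610), against 45.6 CPM (40.5 to 51.1) in the rest. In the blastoid 100 of 127 nuclei with at least 3 HMGA2 UMIs were DCC-high, 25 trophectoderm-like and 2 ribosomal-rich. A fixed number of HMGA2 UMIs also takes the deeper nuclei. The median depth was 13869 UMIs in these 127 and 1968 UMIs in the other blastoid nuclei, and 10169 UMIs and 7470 UMIs in the blastocyst split.

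Likeness between genes was measured by Pearson's r of log2(CPM + 10) across the 6 clusters with at least 50 nuclei, which leaves out the epiblast-like cluster. The points share 2 libraries and differ in depth, so r is a description. LIN28B and HMGA2 had r = 0.97, and IGF2BP1 and IGF2BP3 r = 0.96, whereas HMGA2 and IGF2BP1 had r = 0.07. Among 8563 genes with a symbol and at least 200 UMIs, those near LIN28B included PRR11 (r = 1.00) and LDLRAD3 (r = 0.99). The nearest to HMGA2 were ST6GALNAC3, ZFP30 and PCDHAC2 (r = 0.99), to IGF2BP1 MEGF11, MARK4 and ECT2 (0.99), and to IGF2BP2 LCORL, GPRASP2 and KCND2 (0.99). The nearest to IGF2BP3 were PEAK1, TET2 and TEAD1 (0.99 to 1.00), and to LIN28A CCDC112, SORCS3 and PPP1R8 (0.98 to 0.99). When the epiblast-like cluster was added as the seventh point, PRR11 remained nearest to LIN28B (45.5 CPM in the epiblast-like nuclei), but the genes near HMGA2 then included GPR19 and ADAMTS19 (r = 0.96). With all 7 clusters LIN28B and HMGA2 had r = 0.96, and HMGA2 and IGF2BP1 r = 0.04. IGF2BP1 and IGF2BP3 then had r = 0.87, near the 0.86 of IGF2BP2 and IGF2BP3.

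Most genes of the machinery that makes and degrades let-7 lay within 2-fold between the whole libraries. Of 17 measured genes, 2 were at least 2-fold higher in the blastoid and 2 at least 2-fold lower, with a median log2 ratio of -0.26, where all 19218 genes that reached 10 UMIs had a median of -0.08, with 24.2% higher and 20.8% lower. TUT1, a nuclear terminal uridylyltransferase, was 4.76-fold higher (4.38 to 5.17), but 867 CPM of it were in the ribosomal-rich nuclei and the trophectoderm-like class had a ratio of 1.51 (1.31 to 1.75). The other gene was TRIM25, a cofactor of LIN28A in let-7 uridylation, at 137 against 35 UMIs, named after its value was seen. KHSRP, a let-7 processing factor, had a ratio of 1.23 (1.03 to 1.48). Lower were TRIM71, a ubiquitin ligase and let-7 target, by 2.21-fold (2.07 to 2.37), and the RNA editing enzyme ADAR by 2.42-fold (1.97 to 2.98), with ratios of 0.849 and 0.639 in the trophectoderm-like class. TUT4 and TUT7, the uridylyltransferases that LIN28 recruits, had ratios of 1.16 (1.08 to 1.24) and 0.738 (0.661 to 0.824). Both were named after their values were seen. In the trophectoderm-like class 1 of the 17 genes was higher and 0 lower (median 0.13, all genes 0.01, with 17.8% higher and 15.6% lower).

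Of 34 other known let-7 targets measured, 9 were at least 2-fold higher in the blastoid and 7 lower, with a median log2 ratio of 0.31. These shares were near the 24.2% and 20.8% of all genes. CCND1, the cell cycle gene for cyclin D1, was 28.2-fold higher (16.9 to 50.8) from 462 against 15 UMIs. In the trophectoderm-like class it was 17.6-fold higher (9.30 to 37.4), from 153 against 10 UMIs. Its pattern over the clusters was unlike that of HMGA2. CCND1 had 41.1 CPM in the DCC-high, 63.2 CPM in the trophectoderm-like and 73.0 CPM in the ribosomal-rich blastoid nuclei, and 0 CPM in the epiblast-like nuclei. PLAGL1, an imprinted zinc finger gene, was 5.26-fold higher (4.04 to 6.94). CDC25A, a cell cycle phosphatase, was 3.68-fold lower (2.94 to 4.65) and the insulin receptor INSR 5.84-fold lower (4.85 to 7.06). In the trophectoderm-like class the ratios of PLAGL1, CDC25A and INSR were 2.41, 0.380 and 0.611. There 5 of 32 were higher and 5 lower, near the 17.8% and 15.6% of all genes. In the blastoid, DCC-high over trophectoderm-like nuclei, 10 of 34 were at least 2-fold higher and 2 lower (median 0.32, all genes 0.03, with 21.7% higher and 17.5% lower among genes with at least 10 UMIs).

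Among 21 messenger RNA partners and cofactors of the IGF2BP proteins, 7 were at least 2-fold higher in the blastoid and 3 lower, beside 24.2% and 20.8% of all genes, with a median log2 ratio of -0.14. FSCN1, the actin-bundling protein fascin, was 5.60-fold higher (3.90 to 8.25) and ACTB, beta-actin, 4.89-fold (4.70 to 5.08). ACTB had 4181 CPM in the ribosomal-rich nuclei and 710 CPM in the trophectoderm-like blastoid nuclei, and in the trophectoderm-like class its ratio was 0.917 (0.860 to 0.977). BTRC was 2.64-fold lower (2.39 to 2.90) and the transcription factor MITF 4.89-fold lower (4.42 to 5.41). In the trophectoderm-like class FSCN1 had a ratio of 1.67 (0.941 to 3.02), BTRC of 0.831 (0.709 to 0.974) and MITF of 0.101 (0.0820 to 0.124). There 1 of 19 genes was higher and 1 lower, beside 17.8% and 15.6% of all genes.

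Of 20 other oncofetal and embryonic growth genes measured, 11 were at least 2-fold higher in the blastoid and 4 lower, beside 24.2% and 20.8% of all genes, with a median log2 ratio of 1.25. The list was written with earlier results known, so nothing is read from its count. AFP, the fetal serum protein alpha-fetoprotein, was counted 997 times in the blastoid library and 0 times in the other, 304-fold higher if 3 counts stand for the 0, with an exact lower limit of 247-fold. PAGE4, a cancer/testis family gene, was 298-fold higher (188 to 503). AFP had 259 CPM and PAGE4 1507 CPM in the ribosomal-rich nuclei, above the other blastoid clusters, unlike HMGA2 and LIN28B. DPPA2 and DPPA4, a pair of pluripotency-associated chromatin genes, were 2.40-fold (1.99 to 2.90) and 10.5-fold lower (9.41 to 11.8). In the trophectoderm-like class their ratios were 0.838 (0.630 to 1.11) and 0.281 (0.241 to 0.326), and 5 of 16 genes were higher and 2 lower (median 0.20), beside 17.8% and 15.6% of all genes.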

How the data were processed

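What the authors deposited for each library is a matrix of whole UMI counts, genes by barcodes. The header of each matrix names Cell Ranger 7.2.0. The submitters' processing notes name Cell Ranger 7.1.0 and Seurat 4.3.0. The genome build is not given in the sources used here, so no coordinates or sequences are given. Symbols come from the deposited feature lists. Barcodes with at least 500 genes and under 10% mitochondrial UMIs were kept, and the highest Scrublet scores were removed (scanpy 1.11.5, 30 and 6 barcodes). Clusters came from leidenalg 0.10.2 at resolution 0.5 on 2000 variable genes, 30 components and 15 neighbours. A cluster was named from at least 3 markers, each with at least 100 UMIs and 1.5 times the CPM of the other clusters, and 2 times as many as any other class had. Clusters with over 5% ribosomal protein UMIs were not named, and a neural list, written with the DCC-high genes known, gave no name. Intervals are exact Poisson, conditional and Clopper-Pearson at 95%, tested on simulated data. Cells are not replicates, so no p-value was computed. The genes and lists were chosen with earlier results of these data known. Named genes are the 6 genes, from each list the 2 highest and 2 lowest whole-library ratios with at least 100 UMIs in the 2 sums and 20 CPM in the higher, and the 3 genes of most similar pattern, some of which are not reported here.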

Additional observations from a re-analysis of the deposited data

How the results depend on the processing

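No paired analysis was possible because each group has 1 library, and no replicate could be left out. LIN28B and HMGA2 were higher in the blastoid and IGF2BP1 and IGF2BP3 lower in each alternative run on the whole libraries, whereas IGF2BP2 changed sign in 2 of them. Of these alternative values, 41 moved by less than the counting interval, 23 by more and 2 reversed. As log2 ratios of blastoid over blastocyst, filtering at 4000 UMIs before doublets were called, unlike in the report, where kept nuclei were taken by depth, gave 1.82 (LIN28B), 1.94 (HMGA2), -0.28 (IGF2BP1), 0.88 (IGF2BP2) and -0.077 (IGF2BP3). Relative to the median ratio of the 7826 genes with at least 100 UMIs in each library, the ratios of all kept nuclei were 1.54, 1.53, -0.57, 0.47 and -0.37, in the same order. Averaging the CPM of single nuclei gave 0.51, 0.19, -1.63, -1.03 and -1.46, with each nucleus weighed alike. Without the 1% of nuclei richest in each gene, HMGA2 was at 1.44, IGF2BP1 at -0.97, IGF2BP2 at -0.034 and IGF2BP3 at -0.80. With at least 1000 genes per nucleus IGF2BP1, IGF2BP2 and IGF2BP3 were at -0.71, 0.35 and -0.50, and scaled without ribosomal protein and mitochondrial genes at -0.70, 0.34 and -0.50. In the trophectoderm-like class, 33 values held and 3 moved, all with the GATA2 and GATA3 gate (207 and 213 nuclei), to 1.80 (LIN28B), 5.18 (HMGA2) and 0.82 (IGF2BP2).

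Alternatives for the epiblast-like level were chosen after seeing the data. At resolutions 0.3 and 1.0 it was 554 CPM (LIN28B), 1379 CPM (HMGA2) and 1228 CPM (IGF2BP2) in 16 nuclei. With the NANOG gate it was 537 CPM (HMGA2), 287 CPM (IGF2BP1) and 596 CPM (IGF2BP2) in 40 nuclei, 22 of them in the epiblast-like cluster. The detection difference in the trophectoderm-like class went from 13.3 to 5.31 percentage points for HMGA2 at 1000 UMIs, and for IGF2BP2 from 2.95 to 15.3 percentage points at 4000 UMIs. The share of epiblast-like nuclei with HMGA2, with minus without LIN28B, went from 39.9 to 3.82 percentage points at 4000 UMIs. The cause of these moves was not tested.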

Other observations

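The barcodes left out by the filters, 43 in the blastoid and 117 in the blastocyst, held few molecules of these genes. HMGA2 had 2 and 1 UMIs in them and LIN28B 14 and 7. In the blastocyst IGF2BP1 had 257 CPM (188 to 342) in the left-out barcodes, within the range of its clusters.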
